A study of Mus musculus with 2 samples.

Results

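The mitochondrial genes mt-Atp8, mt-Atp6 and mt-Co3 lie one after another with no tRNA between them, and the sites of LRPPRC on this tract, mapped by photoactivatable ribonucleoside-enhanced crosslinking and immunoprecipitation (PAR-CLIP), are described here. A site was taken when at least 1 nt of it lay on the plus strand of the mitochondrial genome within the annotated body of one of the 3 genes. By this rule 5 sites were found, of 48 sites on the mitochondrial genome and 552 sites in the whole list. Both samples of the study were mouse embryonic fibroblasts (MEFs), cells cultured from embryos, from mice with an Lrpprc–FLAG transgene, and the labels give no age or strain for the mice. Per the labels of both samples, expression of the tagged protein was induced with 2 μg/ml doxycycline for 72 h, and the labels do not say how the control differed. The methods of the paper give this induction after describing human HeLa Tet-On cells and do not name the cells it applied to. Whether the MEFs were induced is thus known from the labels alone. Cells were given 4-thiouridine, which crosslinks to bound protein under ultraviolet light and is then read as C, and the protein was recovered with beads against FLAG. The experimental sample was 1 library with no replicate, and sites of the control sample were not used here. The list gives positions without coverage, so depth is unknown beyond the minimum the site caller asked for, and a base outside all sites may be unbound or too thinly read.

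Most mitochondrial mRNAs are set free when the tRNAs on either side of them are cut out of a long precursor RNA. The border between Atp6 and Co3 has no tRNA, and the Atp8 and Atp6 reading frames overlap and stay on 1 mRNA. Atp8 and Atp6 encode membrane subunits of ATP synthase, Atp6 being the subunit beside the rotating ring through which protons pass. Co3 encodes a core subunit of cytochrome c oxidase, the last enzyme of the respiratory chain. LRPPRC is a pentatricopeptide repeat protein that works with SLIRP and is known for keeping mitochondrial mRNAs stable and polyadenylated.

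In mm10 coordinates mt-Atp8 (ENSMUSG00000064356.3) runs from 7766 to 7969, mt-Atp6 (ENSMUSG00000064357.1) from 7927 to 8607 and mt-Co3 (ENSMUSG00000064358.1) from 8607 to 9390. Together they span 1625 nt. The 4 landmarks of the tract are shown first because the sites are described against them below. They were read from the plus strand of the reference, which writes U as T. In the sequence at the Atp8 start and in that at the Co3 end, capitals mark bases that lie in a site. In the frame overlap, capitals mark the Atp6 start codon and the Atp8 stop codon, and in the Atp6-Co3 junction they mark the Atp6 stop codon and the Co3 start codon, which share an A.
Atp8 start with the last bases of mt-Tk, chrM:7745-7795: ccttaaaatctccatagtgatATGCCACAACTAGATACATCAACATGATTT
Atp8-Atp6 frame overlap with 15 nt on either side, chrM:7912-7984: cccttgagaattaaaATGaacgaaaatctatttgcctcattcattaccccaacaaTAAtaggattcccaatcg
Atp6-Co3 junction, chrM:8567-8643: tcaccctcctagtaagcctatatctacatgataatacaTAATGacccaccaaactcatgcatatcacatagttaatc
Co3 end, mt-Tg and start of Nd3, chrM:9326-9478: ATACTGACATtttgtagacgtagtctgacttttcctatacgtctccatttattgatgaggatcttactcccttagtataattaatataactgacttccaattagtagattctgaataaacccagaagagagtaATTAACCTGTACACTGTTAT

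The 5 sites covered 1307 of the 1625 bases of the tract, a share of 80.4% (95% Wilson interval 78.4 to 82.3%). Intervals here cover counting error only and take each base as a separate draw, although neighbouring bases fall in a site together. The sites held 13.8% of all mitochondrial site bases. Site 1 lay at 7766 to 8453 (688 nt) and was the widest of the 48 mitochondrial sites. It took in the whole of Atp8 and the first 527 bases of Atp6. Site 2 lay at 8458 to 8581 (124 nt), wholly in Atp6. The 3 sites of Co3 were site 3 at 8629 to 8798 (170 nt), site 4 at 8925 to 9037 (113 nt) and site 5 at 9124 to 9335 (212 nt). By width, sites 2 to 5 held ranks 30, 21, 34 and 14 among the mitochondrial sites, whose median width was 147.5 nt. The tract thus held the widest site and a pair of sites below the median. On the minus strand, 0 bases of the tract were in a site.

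**Figure D1:**
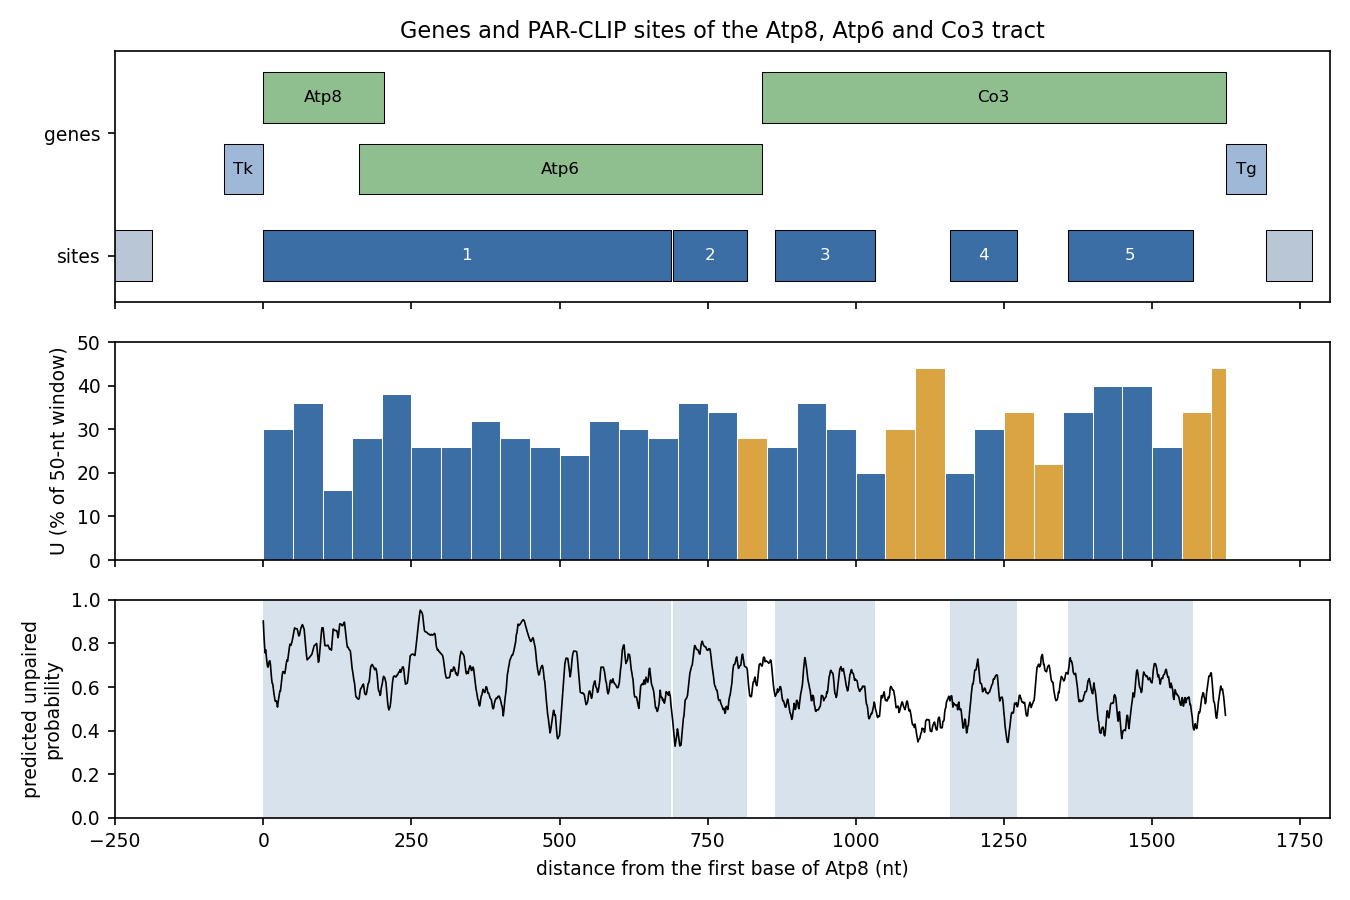
Genes, sites, U content and predicted pairing along the tract, against the distance in nt from the first base of Atp8. Top, genes (green, mRNA; pale blue, tRNA) and sites (dark blue, the 5 sites of the tract; grey, the neighbouring sites in Co2 and Nd3). Middle, U as a percentage of each 50-nt window (the last window is 25 nt), blue where at least 50% of the window was in a site and yellow elsewhere. Bottom, predicted probability of being unpaired, as a running mean over 25 nt, with sites shaded. Sites run almost without a break from the first base of Atp8 to near the end of Atp6, and are separated by wider gaps in Co3.

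The mRNA of Atp8 and Atp6 was covered in 812 of its 842 bases, or 96.4% (94.96 to 97.49%). Atp8 was covered in 204 of 204 bases and Atp6 in 651 of 681 bases (95.6%, 93.8 to 96.9%). Site 1 began on the first base of Atp8, which is also the first base of its AUG start codon, as the change to capitals in the sequence at the Atp8 start shows. A single base separates Atp8 from mt-Tk, the lysine tRNA upstream, and mt-Tk had 0 of 65 bases in a site. The nearest site upstream ended at 7578 in Co2, which encodes another subunit of cytochrome c oxidase, and 187 nt lay between it and site 1. The 43 bases shared by the Atp8 and Atp6 frames, at 7927 to 7969, lay inside site 1 with 161 covered bases before them. The Atp6 AUG and the Atp8 UAA, capitalised in the printed overlap, were both covered. The other bicistronic mRNA of the genome differed here, since 0 of the 7 bases that the Nd4l and Nd4 frames share were in a site. With overlaps of 43 and 7 bases and 1 library, no test of this difference was made.

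The boundary between sites 1 and 2 was a gap of 4 nt at 8454 to 8457. This was the narrowest of the 38 gaps between neighbouring plus-strand sites, whose median was 118.5 nt. The gap, with 20 nt on either side and the uncovered bases in capitals, reads as follows and holds 1 U.
Gap between sites 1 and 2, chrM:8434-8477: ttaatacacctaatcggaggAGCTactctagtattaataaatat
It lies in codons 176 and 177 of the 227 codons of Atp6. When sites 20 nt or less apart were joined, the tract had 4 sites in place of 5, and Atp6 was then covered by 1 run up to its codon 219.

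At the Atp6-Co3 junction the coverage stopped on both sides of the overlapping codons. Site 2 ended at 8581 and site 3 began at 8629, which left a gap of 47 nt at 8582 to 8628. The gap held the last 26 bases of Atp6 and the first 22 bases of Co3, the 1 base at 8607 being in both genes. The Atp6 stop codon UAA (8605 to 8607) and the Co3 start codon AUG (8607 to 8609) were not in a site, and the stop codon lay 22 nt and the start codon 20 nt from the nearest one. Thus the 1 base that the Atp6 and Co3 frames share was uncovered, whereas the 43 bases that the Atp8 and Atp6 frames share were covered. The uncovered bases at the junction were not free of U. There were 12 U among 47 bases (25.5%), and the longest run without U was 12 nt. Within 50 nt on either side of the first base of Co3, 53 of 100 bases were covered (53.0%, 43.3 to 62.5%). This value depended on the distance used, being 6% within 25 nt and 76.5% within 100 nt. It was 33.0% with sites trimmed by 10 nt at both ends and 28.0% when sites narrower than the mitochondrial median were dropped, site 2 among them.

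Co3 was covered in 495 of 784 bases, or 63.1% (59.7 to 66.4%), by 3 sites. Site 3 spanned codons 8 to 64, site 4 codons 107 to 144 and site 5 codons 173 to 243 of the 261 whole codons of the gene. The gaps between them were 126 nt (8799 to 8924) and 86 nt (9038 to 9123). When Co3 was divided into 3 parts of near equal length, the middle part had the lowest share, with 119 of 262 bases (45.4%, 39.5 to 51.5%). The part at the 5′ end had 170 of 261 bases (65.1%, 59.2 to 70.7%) and the part at the 3′ end 206 of 261 bases (78.9%, 73.6 to 83.4%). The last 55 bases of Co3 (9336 to 9390) were in no site. They include the single U at 9390 that ends the gene and becomes a stop codon when A residues are added. The glycine tRNA that follows, mt-Tg, had 0 of 68 bases in a site. The next site began on base 1 of Nd3, at 9459, so that 123 nt were uncovered between site 5 and that site, as the lower-case run in the sequence at the Co3 end shows.

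The 3 sites of Co3 and the 2 gaps between them are printed because Co3 holds sites and gaps of like width in 1 reading frame. Capitals mark the word CACT, or CACU in RNA, read on the plus strand.
Site 3, chrM:8629-8798: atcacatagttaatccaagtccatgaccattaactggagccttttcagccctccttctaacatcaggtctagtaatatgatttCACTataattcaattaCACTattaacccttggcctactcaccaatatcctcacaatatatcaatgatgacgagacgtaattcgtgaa
Gap between sites 3 and 4, chrM:8799-8924: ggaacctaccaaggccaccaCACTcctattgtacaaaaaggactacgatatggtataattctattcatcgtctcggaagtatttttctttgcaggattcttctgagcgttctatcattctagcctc
Site 4, chrM:8925-9037: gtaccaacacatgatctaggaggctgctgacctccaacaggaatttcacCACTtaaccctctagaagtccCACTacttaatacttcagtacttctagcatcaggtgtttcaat
Gap between sites 4 and 5, chrM:9038-9123: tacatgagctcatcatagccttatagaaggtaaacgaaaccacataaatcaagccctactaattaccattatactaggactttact
Site 5, chrM:9124-9335: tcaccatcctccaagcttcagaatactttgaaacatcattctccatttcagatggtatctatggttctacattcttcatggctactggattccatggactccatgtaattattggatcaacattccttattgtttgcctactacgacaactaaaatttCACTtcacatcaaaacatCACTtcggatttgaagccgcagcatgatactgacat

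CACU is 1 of 6 words of 4 nt that were counted because earlier results of these data had singled them out over all mitochondrial sites, so the counts are a description of the same sites and no independent result. CACU occurred 14 times wholly within sites of the tract and 1 time in a gap. Per 100 positions this was 1.08 in sites and 0.330 in gaps. In the other heavy-strand mRNAs the values were 0.888 per 100 positions in sites and 0.467 in gaps. Within the tract, site 1 held 8 copies, sites 3, 4 and 5 held 2 each, and site 2 held 0. The copy in a gap lay between sites 3 and 4. Of the other 34 plus-strand sites, 23 (67.6%) held the word. Among windows of the other heavy-strand mRNAs as wide as sites 3, 4 and 5, the shares with the word were 71.6%, 56.2% and 81.2%. A stretch of such a width thus held a copy more often than not. At the width of site 2, which held 0 copies, the share was 59.6%. At the widths of the gaps of at least 47 nt, in order from 5′ to 3′, the shares were 27.9%, 60.1%, 46.1% and 32.0%. Of the other 5 words, UCCC occurred 5 times in sites and 0 times in gaps of the tract, or 0.387 and 0 per 100 positions. Site 1 held 4 of these copies, and the gaps had only 303 positions against 1292 in sites. AGUC occurred 4 and 1 times, or 0.310 per 100 positions in sites and 0.330 in gaps. UGGU occurred 2 and 1 times, or 0.155 per 100 positions in sites and 0.330 in gaps. AGUG and AGAG occurred 0 times in either.

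A crosslink needs a U, so the U content of sites and gaps was compared. U made up 30.0% of the 1307 site bases (392 U) and 31.8% of the 318 gap bases (101 U), a difference of -1.77 percentage points with a Newcombe interval of -7.60 to 3.73. In Co3 alone U made up 30.9% of site bases and 31.8% of gap bases. Single sites ranged from 27.4% (site 4) to 34.7% (site 2), and the gaps of at least 47 nt ranged from 25.5% at the Atp6-Co3 junction to 43.6% at the end of Co3. The ranges of sites and gaps overlapped. The uncovered 55 bases at the end of Co3 had a higher U share than any site of the tract, with 24 U and 5 nt as the longest run without U. The longest run without U anywhere in the tract's sites was 22 nt, in site 1, and the longest in a gap was 16 nt, in that between sites 3 and 4.

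Of the other bases, G made up 10.5% of site bases and 14.5% of gap bases. The 2 mRNAs differed in this. Site 1 had 9.01% G and site 2 had 8.06%, whereas the 3 sites of Co3 had 11.8 to 15.04%. Within Co3, G made up 13.1% of site bases and 14.9% of gap bases, and its 2 inner gaps lay on either side, with 16.7% between sites 3 and 4 and 11.6% between sites 4 and 5. Over the tract, C made up 26.2% of site bases and 23.6% of gap bases, and A 33.3% and 30.2%. Within Co3, A made up 30.1% of site bases and 29.4% of gap bases, and C 25.9% and 23.9%. In Atp8/6, A made up 35.2% of site bases and 40% of the 30 gap bases, and C 26.5% and 20%. The higher A share in sites was thus not seen in Atp8/6. Outside the tract, in the other heavy-strand mRNAs, G made up 10.4% of site bases and 13.2% of gap bases. There C made up 27.0% and 24.7%, A 33.8% and 32.1%, and U 28.8% and 30.0%. For each base the direction over the tract was thus that of the other mRNAs.

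**Figure D2:**
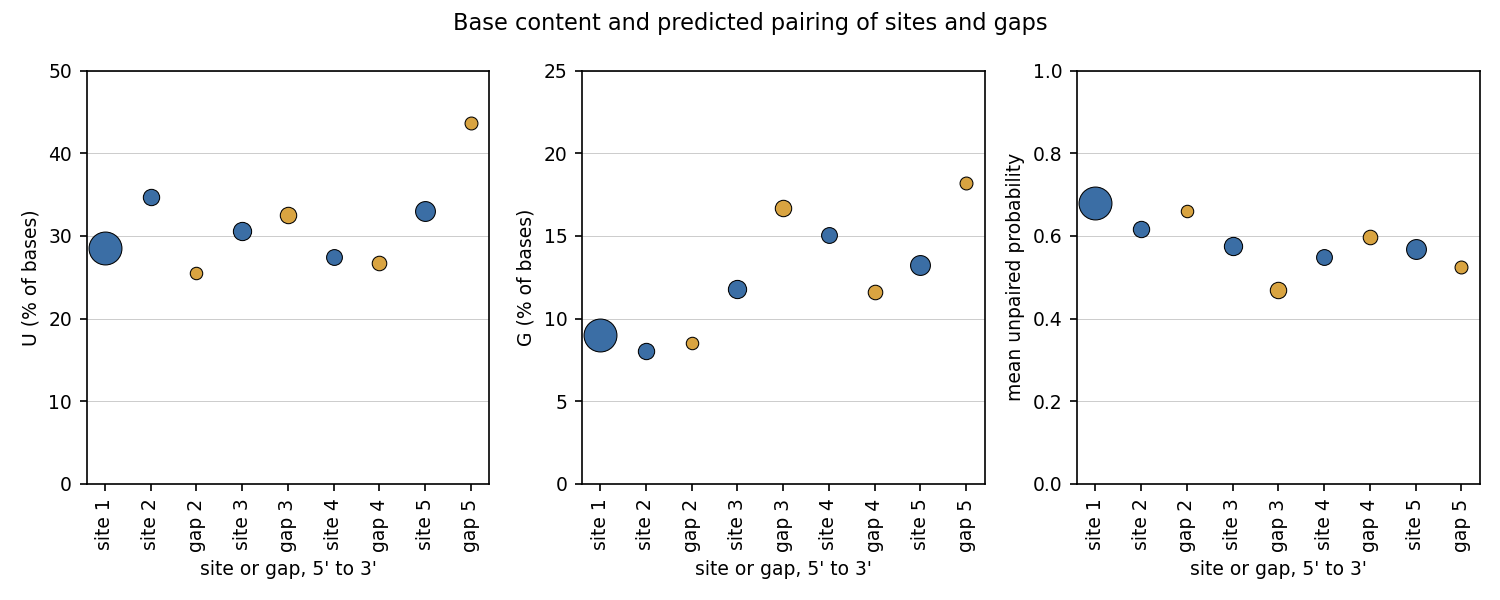
U share, G share and mean predicted unpaired probability of each site (blue) and each gap of at least 47 nt (yellow), in order from 5′ to 3′. The area of a point grows with the width of the segment, and each point is 1 segment with no replicate. Sites and gaps overlap in all 3 measures, and the gap at the end of Co3 has the highest U share, 43.6%.

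The probability of each base being unpaired was predicted from sequence over the Atp8 to Co3 transcript. The mean was 0.630 over site bases and 0.545 over gap bases, a difference of 0.0850. In Co3 alone the means were 0.567 and 0.536, and the difference was 0.0313. In Atp8/6 the means were 0.669 and 0.645, a difference of 0.0244 that rests on 30 gap bases. The difference over the tract was thus larger than that within either mRNA, since 289 of the 318 gap bases lie in Co3, whose mean was lower (0.555 against 0.668 in Atp8/6). Site 1 had the highest mean of any segment over 4 nt, 0.679, and the gap at the Atp6-Co3 junction was next with 0.659, above the 0.616 and 0.575 of sites 2 and 3 beside it. The lowest mean was 0.470, in the gap between sites 3 and 4. The gap between sites 4 and 5 had 0.597, above the 0.550 and 0.569 of the sites on either side. Of the 3 gaps that have a site of the tract on both sides and are over 4 nt wide, 1 was thus predicted to be more paired than its neighbouring sites and 2 less paired. When folded within the whole plus strand, 9 of the 10 heavy-strand mRNAs, among them Atp8/6 and Co3, had a higher mean over site bases than over gap bases.

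The tract was then set beside the other heavy-strand mRNAs. It made up 15% of the 10833 bases of these mRNAs and 19.2% of their 6791 covered bases. The 8 other mRNAs were covered in 5484 of 9208 bases, or 59.6% (58.6 to 60.6%). Atp8/6 had the highest share of the 10 mRNAs and Co3 was in place 6, so that 2 mRNAs next to each other in the precursor lay 33.3 percentage points apart. The nearest neighbours of Co3 in this order were Nd2 above it, with 77.4% (74.7 to 79.8%), and Cytb below it, with 53.3% (50.4 to 56.2%). Nd4l/4, the other bicistronic mRNA, had 78.2% (76.1 to 80.1%). No test was made of these differences, because bases within 1 site are not independent and no replicate exists. In number, sites were about as dense as elsewhere, with 3.08 per 1000 bases in the tract and 2.93 in the other mRNAs. The other 27 sites in these mRNAs had widths of 58 to 539 nt (median 183 nt), and the 5 sites here had widths of 113 to 688 nt (median 170 nt). Site 1 was wider than every site in the other mRNAs, and the other 4 sites of the tract lay within the range of those sites.

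**Figure D3:**
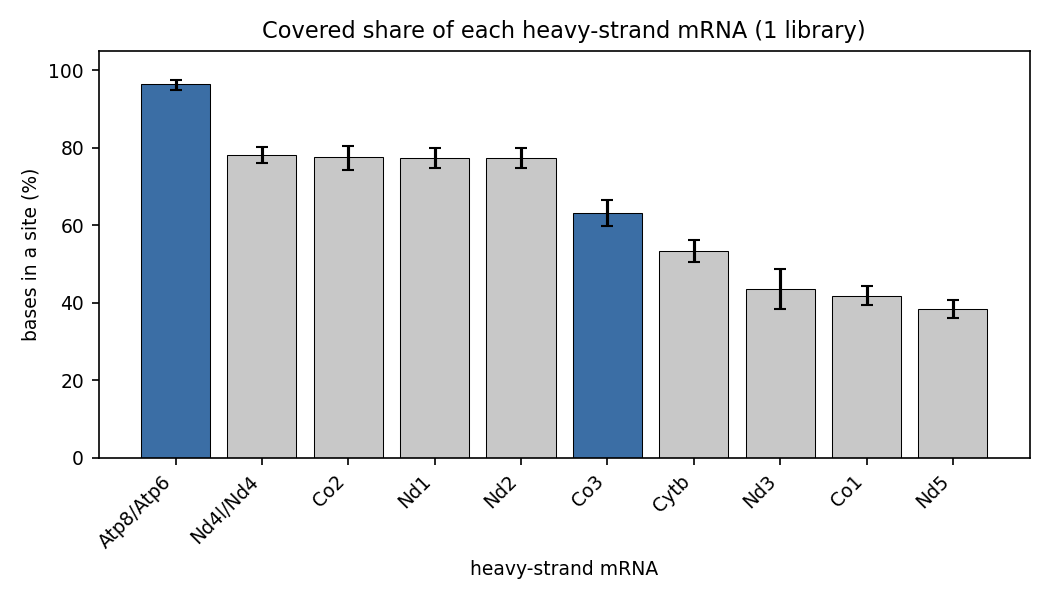
Share of bases in a PAR-CLIP site for each of the 10 heavy-strand mRNAs, from highest to lowest, with Atp8/6 and Co3 in blue. Bars are shares in percent from 1 library and error bars are 95% Wilson intervals for counting error over bases. Atp8/6 is at 96.4% and Co3 at 63.1%.

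The 2 ends of the tract differed. The first 50 bases of Atp8 were covered in full, as were those of 6 of the 10 mRNAs, and 1 mRNA, Co1, had 0 of its first 50 bases in a site. The last 50 bases of Co3 had 0 in a site, which was also so in 5 of the 10 mRNAs, Co3 included. At the junction without a tRNA, 24 of the last 50 bases of Atp6 and 28 of the first 50 bases of Co3 were covered. A site began within 1 nt of the first base of the gene in 3 mRNAs, which were Atp8/6, Nd3 and Nd4l/4. A plus-strand tRNA ends just upstream of these and of 4 other mRNAs, 7 of the 10 in all. Of those 4, Nd1 and Co2 had the nearest site start 15 and 36 nt inside the gene. Nd2 and Nd5 had it 32 and 29 nt upstream of the first base, and the site there ran across the gene start. For Co3 the nearest site start lay 22 nt inside the gene.

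**Figure D4:**
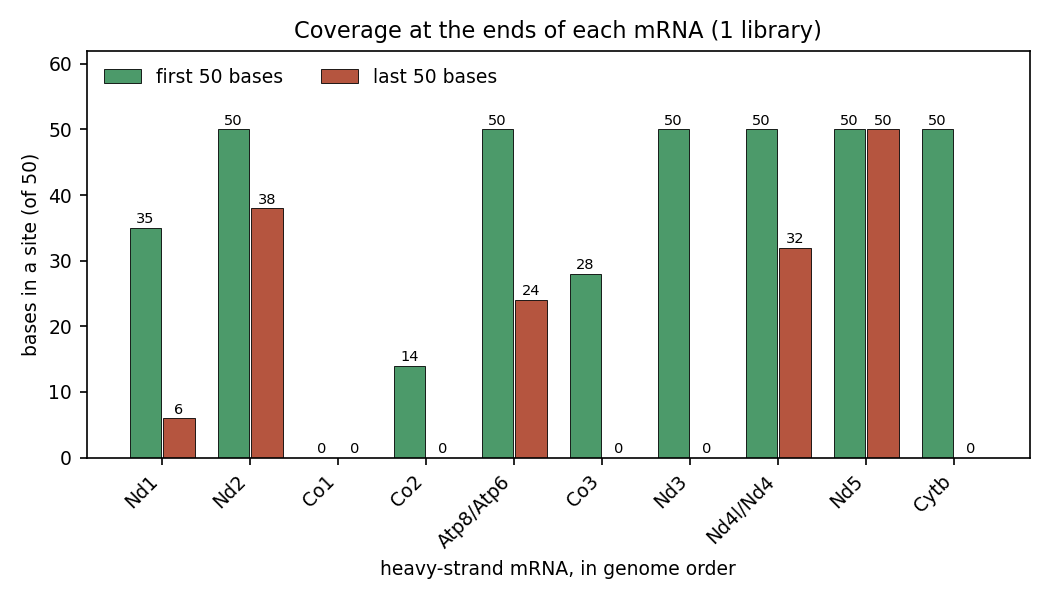
Number of bases in a site among the first 50 (green) and last 50 (red) bases of each heavy-strand mRNA, in genome order. Bars are counts from 1 library. Atp8/6 has 50 at its 5′ end and 24 at its 3′ end, and Co3 has 28 and 0.

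The tract also has copies in nuclear DNA, which bear on where reads are placed. All 1625 bases of the tract were identical to a stretch on the minus strand of chromosome 1 (24613188 to 24614812), with 0 mismatches and 0 gap bases. Site 2 had a further match of 94.7% identity on chromosome 3 (94334571 to 94334684). The deposited list had 0 sites in either stretch. The authors masked nuclear copies of mitochondrial DNA, as listed in a UCSC track, before alignment. Whether that track held either stretch was not checked here. For a masked stretch, reads of either origin would be placed on the mitochondrial genome. The 2 origins cannot be told apart at these 5 sites.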

How the data were processed

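PAR-CLIP sites of LRPPRC-FLAG from MEFs were analysed for 1 experimental library. According to the labels and methods, the authors collapsed PCR duplicates with random barcodes, cut adapters off with cutadapt 1.10, aligned reads with Bowtie 1.12 to mm10 with nuclear mitochondrial copies masked, and called crosslinked regions with BMix. The deposited list gives positions, and its score column was 0 in all 552 lines, so no coverage was available. A call needs U and a minimum coverage, so regions poor in U or in reads can be missed.

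Starts were read as 0-based and printed as 1-based. Genes came from GENCODE vM21 and sequence from RefSeq's GRCm38 assembly, whose mitochondrial sequence is 16299 nt long. Genes, site rule, words and lists were chosen with earlier results of these data known, and every site and gap of the tract is named. Shares were given with 95% Wilson intervals, without tests. Pairing was predicted with RNAplfold 2.7.2 (window 150 nt, span 100 nt). Nuclear matches were sought with blastn 2.17.0 at a minimum of 90% identity over 90% of the query. Base counting and folding were tested on simulated data. Python 3.11.15, NumPy 2.4.6, SciPy 1.17.1 and statsmodels 0.14.6 were used. Alternatives kept only wider sites, ignored strand, trimmed or merged sites, changed windows or folding settings, or read starts as 1-based.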

Additional observations from a re-analysis of the deposited data

How the results depend on the processing

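Of 34 alternative values, 19 stayed within the interval of the main value (counts within a factor of 1.5, unpaired probabilities within 0.0511, the SD over the 5 sites) and 15 moved. None changed sign. When sites narrower than the mitochondrial median were dropped (sites 2 and 4), 3 sites were left. The covered share then fell to 65.8% of the tract, 81.7% of Atp8/6 and 48.7% of Co3, and to 28.0% within 50 nt of the Atp6-Co3 junction. With sites trimmed by 10 nt at both ends, these shares were 74.3%, 91.7%, 55.5% and 33.0%. In 50-nt windows touched by a site they were 87.9% of the tract, 100% of Atp8/6 and 75.0% of Co3. The junction share was 6% within 25 nt and 76.5% within 100 nt. These changes follow from the construction of the alternatives. The difference in unpaired probability was 0.0313 in Co3 alone and 0.0244 in Atp8/6, each below the 0.0850 over the tract. As given above, most gap bases lie in Co3, whose mean was lower. Why sites and gaps differ within an mRNA was not tested. Reading starts as 1-based moved no share beyond its interval. Ignoring strand could change no value, since 0 bases of the tract were in a minus-strand site. The frame overlap stayed at 100% in both alternatives. It could not do otherwise, since it lies in the widest site with 161 covered bases before it. These unchanged values are among the 19 and are no sign of stability. No paired analysis was possible because the list comes from 1 library. The missing coverage values limit all statements on uncovered bases.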

Other observations

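U was not spread evenly over the codons. In the covered part of Atp6 it made up 16.1% of bases at codon position 1, 47.9% at position 2 and 25.9% at position 3. In the sites of Co3 the shares were 25.6%, 36.7% and 30.3% in the same order, and in its gaps they were 27.6%, 38.9% and 29.2%. No test was made of these shares.

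Nuclear genes for subunits of the same 2 complexes were looked up in the list. Of 17 genes for ATP synthase subunits or its regulators found in the annotation, 0 had a site on either strand. Of 16 genes for cytochrome c oxidase subunits, 0 had one. Of all 21938 nuclear protein-coding genes, 201 (0.916%) had a site on either strand, so a count of 0 in lists of this length is no result about these genes.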
